A study of Homo sapiens with 11 samples.

Results

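The cytosolic ribosomal protein genes encode the protein components of the ribosome that translates nuclear-encoded mRNA. Members were taken by symbol, as the protein-coding genes on chromosomes 1 to 20 named RPSA, FAU, RPLP0, RPLP1 or RPLP2, or RPL or RPS followed by a number and only the letters A, L or X. The rule found 78 genes among the 23167 identifiers of the count tables, 29 of the small subunit, 46 of the large subunit and 3 of the P-stalk, and it used no measured value. The cells were MDA-MB-231, an established human TNBC line (triple-negative breast cancer), and all libraries came from this 1 line. RNA-seq compared 2 WT libraries, from cells that received the transfection reagent with no siRNA, with 2 mH2A1.1 KD libraries, from cells transfected for 3 days with siRNA at 11 nM against mH2A1.1, a splice isoform of the histone variant macroH2A1. The siRNA was set against no siRNA rather than a control siRNA, so an effect of carrying any siRNA and the loss of mH2A1.1 cannot be told apart here. ChIP-seq of WT cells gave 1 list of mH2A1.1 peaks and 1 list of total mH2A1 peaks.

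Each ribosome holds 1 copy of nearly every one of these proteins, which bind rRNA in the nucleolus and nucleus before the subunits reach the cytoplasm. Their mRNAs are abundant and short, and most begin with a C followed by a run of pyrimidines, the 5′ terminal oligopyrimidine (TOP) tract through which mTOR signalling and LARP1 set their translation and storage. The genes are also known for the many processed pseudogenes copied from their mRNAs and for snoRNAs held in their introns. A few have a second, divergent copy, such as RPL22 and RPL22L1.

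The start of the mRNA is shown for genes that the results below turn on. Each line gives 30 bases of the sense strand from RefSeq (GRCh38.p14), 10 before and 20 from the annotated first base, with the pyrimidine run that starts at a C on that base in capitals. The first 8 lines are members with such a tract, RPL22 and RPL22L1 are a paralogue pair that share the feature, and the last 3 have no tract at the annotated base.
RPS21 (chr20:62387093-62387122, plus strand): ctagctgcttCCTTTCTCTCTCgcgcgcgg
RPL38 (chr17:74203668-74203697, plus strand): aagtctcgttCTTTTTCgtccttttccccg
RPL41 (chr12:56116623-56116652, plus strand): cttcgcctttCTCTCggccttagcgccatt
RPL36 (chr19:5690285-5690314, plus strand): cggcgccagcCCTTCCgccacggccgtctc
RPL37A (chr2:216498834-216498863, plus strand): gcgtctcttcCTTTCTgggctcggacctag
RPLP1 (chr15:69452808-69452837, plus strand): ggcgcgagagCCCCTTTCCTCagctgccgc
RPS24 (chr10:78033853-78033882, plus strand): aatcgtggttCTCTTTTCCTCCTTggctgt
RPS6 (chr9:19380217-19380246, minus strand): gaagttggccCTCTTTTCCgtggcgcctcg
RPL22 (chr1:6199576-6199605, minus strand): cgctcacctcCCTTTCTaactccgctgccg
RPL22L1 (chr3:170870176-170870205, minus strand): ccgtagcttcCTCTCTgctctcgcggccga
RPL7L1 (chr6:42879606-42879635, plus strand): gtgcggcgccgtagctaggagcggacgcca
RPS27L (chr15:63157458-63157487, minus strand): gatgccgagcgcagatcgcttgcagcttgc
RPS28 (chr19:8321486-8321515, plus strand): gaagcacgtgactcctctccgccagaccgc

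A promoter entry was found by symbol for 62 of the 78 members, in 76 entries. A C followed by at least 4 bases that are C or T stood on the annotated first base in at least 1 entry of 43 of these 62 members (69.4%), against 5.14% of the 27305 symbols with a promoter. The 19 without it were RPL4, RPL6, RPL9, RPL10A, RPL10L, RPL15, RPL17, RPL19, RPL26L1, RPL27, RPL32, RPL36AL, RPL7L1, RPS7, RPS15, RPS26, RPS27L, RPS28 and RPS29. A shift of the annotated start by a few bases hides a tract, and when the C was allowed within 5 bases of that start the counts were 50 of 62 members and 25.2% of all symbols. RPL7L1 and RPS27L had none even then, while RPS28 did. In the 300 bases from 250 before to 50 after the start, AAGATGGC was present on either strand in 10.5% of the members' entries and 2.89% of all 35116 entries and CCGGAAGT in 14.5% and 4.14%. GGGCGG was in 52.6% against 45.0%, CACGTG in 6.58% against 7.26%, and TATAAA in 7.89% against 11.5%. These are matches of letters and not measured binding sites.

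The counts on genes summed to between 2309549 and 9794674 per library, with mH2A1.1 KD replicate 2 the lowest. The paper also lists the lowest share of uniquely mapped reads for that library, and the part of this in the members' values was not tested. Of the 2309549 counts of that library, 2309519 lay outside chromosomes 21, 22, X, Y and M. Genes annotated on those chromosomes were therefore left out. The gene of the target, MACROH2A1, stood at 385 and 394 CPM (counts scaled to library size with TMM factors) in WT and 274 and 300.1 CPM in mH2A1.1 KD, a log2 fold change of -0.44 (standard error 0.173, adjusted p = 0.205 in edgeR). Both isoforms give these counts, so they do not measure mH2A1.1 itself. By RT-qPCR, western blot and immunofluorescence, the paper reports depletion of mH2A1.1, partial in the immunofluorescence. It reports that the protein of the other isoform was kept. The mesenchymal markers VIM and CD44 were high in all 4 libraries (at least 2315 and 1319 CPM), and the hormone receptor genes ESR1 and PGR had 0 counts in every library. ERBB2, the third receptor of the label, stood between 79.9 and 128 CPM. The epithelial genes EPCAM and KRT18 were detected, EPCAM between 19.9 and 24.2 CPM and KRT18 at 344 and 380.4 CPM in WT and 515 and 808 CPM in mH2A1.1 KD, and the part of this in the members' values was not tested. The replicate libraries correlated at a Pearson's r of 0.994 in WT and 0.96 in mH2A1.1 KD across 10963 genes, which are not independent replicates. The sources do not say whether replicates were separate cultures, so p-values cover the spread between these libraries only.

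Members took 2.46% and 2.69% of the counts on the chromosomes used in WT, and 2.96% and 4.14% in mH2A1.1 KD replicates 1 and 2. The share was therefore higher in both KD libraries than in both WT libraries, with a step from replicate 1 to replicate 2 that was larger than the step from WT to replicate 1. In such bulk libraries fewer cells of a type and less RNA per cell cannot be told apart, nor can a gain of these RNAs and a loss of the rest. Of the 78 members, 74 passed the filter on low counts. RPL3L, RPL10L and RPS25 had 0 counts in all 4 libraries, which allows up to 3 counts per library, and RPL7A had 1 count in mH2A1.1 KD replicate 2 and 0 elsewhere. RPL3L and RPL10L are paralogues with tissue-restricted expression, in muscle and testis. RPS25 and RPL7A are core ribosomal proteins, and their values of 0 are those of the tables and no measure of absence from the cells.

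Levels in WT covered a wide range. Per kb of annotated exon, the median tested member stood at 102 CPM per kb against 6.96 CPM per kb over all genes tested, and 62 of 74 members were in the upper 10% of genes. Among the highest were RPS2, RPL8, RPS15 and RPS3A. RPS2 had 317 and 349.6 CPM per kb in the WT libraries, RPL8 had 280.4 and 302, RPS15 had 257 and 283, and RPS3A had 265 and 270.4. RPL8 and RPS15 did not differ beyond the spread of their libraries, nor did RPS15 and RPS3A, whereas RPS2 and RPL8 did not overlap. The 3 lowest were RPL17 at 1.20 and 1.23, RPS29 at 2.06 and 2.27, and RPS15A at 2.35 and 2.70 CPM per kb. Exon length here sums every annotated exon, and long minor transcripts make it large for some members, such as RPL37 with 8040 exon bases for 291 coding bases, so that order depends on the length used.

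**Figure D1:**
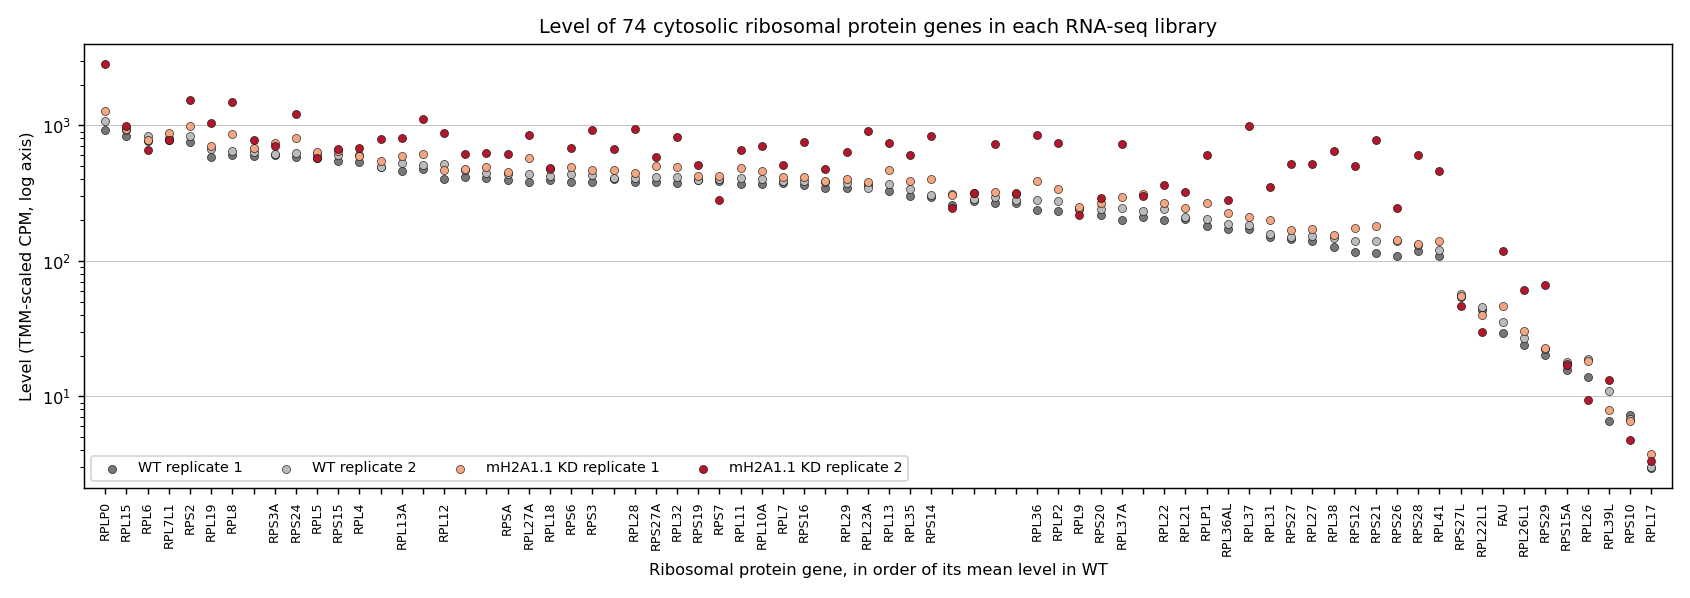
The vertical axis gives the level in TMM-scaled CPM on a log scale and the horizontal axis the 74 tested members in order of their mean WT level, with 1 point for each of the 4 libraries and symbols for the genes described in the text. The 2 WT points lie close together for most genes, the mH2A1.1 KD replicate 1 point mostly lies just above them, and the mH2A1.1 KD replicate 2 point ranges from below them to several times above, as for RPS21 at 774 CPM against 114 and 139.9 CPM in WT.

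Several of the lowest counts belonged to genes whose coding bases lie in exons of another annotated gene on the same strand. All coding bases of RPL17 lie in the readthrough gene RPL17-C18orf32, and 92.1% of those of RPS10 lie in RPS10-NUDT3. In the order WT replicate 1, WT replicate 2, mH2A1.1 KD replicate 1 and mH2A1.1 KD replicate 2, the counts of RPL17 were 28, 23, 20 and 7 and those of RPS10 were 69, 52, 35 and 10, and both readthrough genes had 0 throughout. RPL26 (71.0% shared) had 131, 143, 97 and 20 counts and RPS15A (54.6% shared) had 149, 137, 92 and 36. Reads on bases that 2 genes share are left uncounted by htseq-count at its default setting, so the levels of these 4 genes are uncertain. RPL22 shares 59.9% of its coding bases in the same way and had 1915 counts in WT replicate 1.
Near-identical copies are a second limit. GENCODE names 1458 pseudogenes after members, up to 133 for RPL21, and a median of 53.2% of a member's 50-base coding windows had no exact match elsewhere in GRCh38. For RPL21, RPL41, RPS10, RPS26, RPS27 and RPS28 no such window was unique. For RPL38, RPL39L, RPL3L and RPS27L all were. Across the 74 members the share of unique windows had a Spearman's rho of 0.21 with the log2 fold change and of -0.0654 with the level per kb, so neither moved closely with it.

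mH2A1.1 KD was compared with WT in a fit of 10963 genes with edgeR's quasi-likelihood test. A call required a Benjamini-Hochberg adjusted p below 0.1 together with a change of more than 1.5-fold. Most ribosomal protein genes were estimated higher in mH2A1.1 KD, but none passed this test. The median log2 fold change of the 74 members was 0.51 against 0.01 over all genes tested, 66 were positive and 8 negative, and 15 of them exceeded 1, as 2.39% of all genes did. The test called 0 of 74 members and 0 of 10963 genes (0%), with a smallest adjusted p of 0.176 over all genes and 0.194 among members. At an unadjusted p under 0.05, 34 members were higher (background 11.8%) and 0 lower (background 11.4%). DESeq2 on the same genes called 21 of the 70 members to which it gave an adjusted p, all higher in mH2A1.1 KD (background 5.52% higher and 5.73% lower over 7765 genes). They included RPS3, RPS12, RPS14, RPS24, RPS27 and FAU of the small subunit, RPL8, RPL13, RPL23A, RPL27, RPL27A, RPL31, RPL32, RPL36, RPL37A and RPL41 of the large subunit, and RPLP0, RPLP1 and RPLP2. The whole table adds the chromosomes that mH2A1.1 KD replicate 2 almost lacks. On it DESeq2 called 8 members higher (background 4.43%). They were FAU, RPL8, RPL13, RPL27A, RPL36, RPLP1, RPS14 and RPS24, so that 13 of the 21 calls ended there. An adjusted p from DESeq2 below is from the fit without those chromosomes.
Both mH2A1.1 KD libraries lay above both WT libraries for 60 of 74 members (background 32.5%), and both lay below for 2, RPL22L1 and RPS10 (background 32.4%). Taken one at a time, mH2A1.1 KD replicate 1 was above both WT libraries for 64 members (42.4% of all genes) and replicate 2 for 63 (46.5%). The size differed between the 2 libraries. The median log2 ratio to mean WT was 0.21 in replicate 1 and 0.73 in replicate 2, and replicate 2 exceeded replicate 1 for 60 of 74 members.

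**Figure D2:**
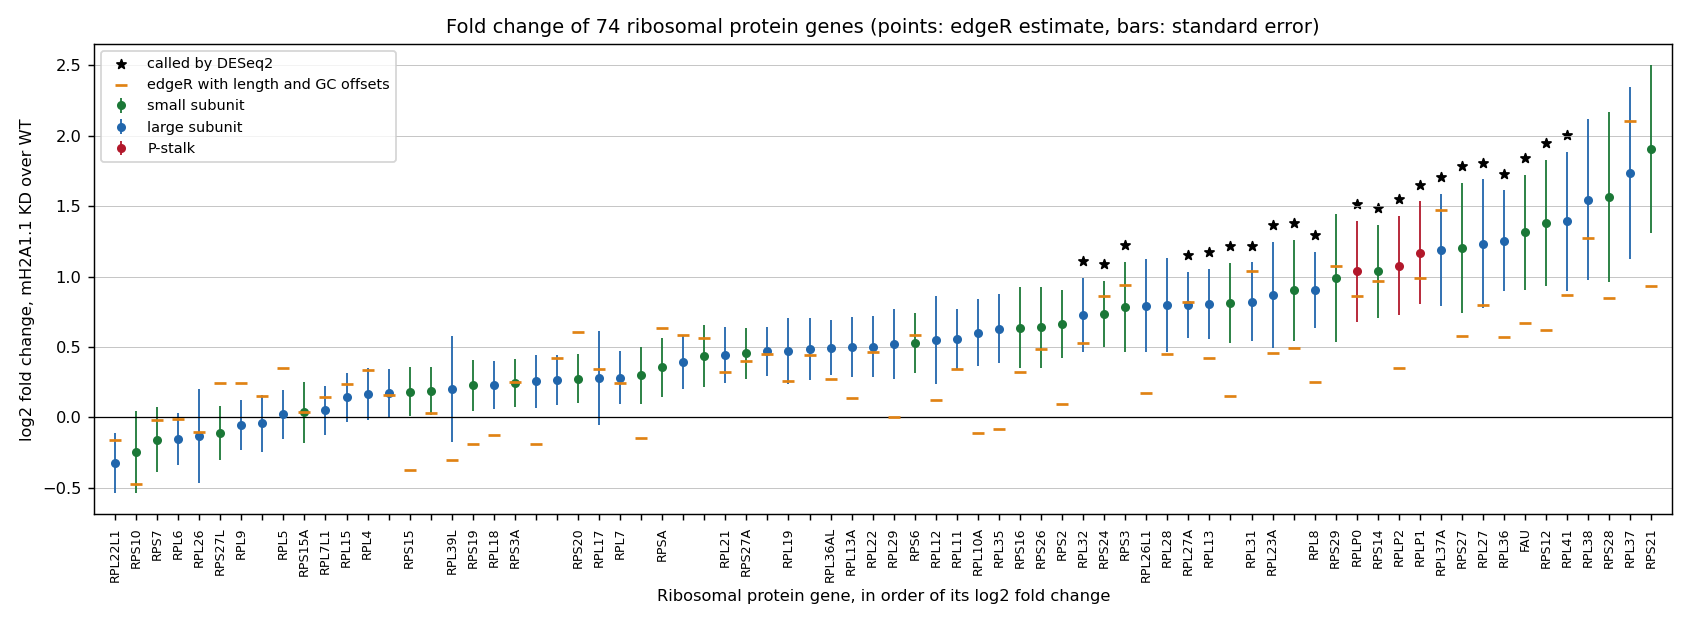
The vertical axis gives the log2 fold change of mH2A1.1 KD over WT and the horizontal axis the 74 tested members in order of that value, with symbols for the genes described in the text, edgeR estimates as points, standard errors as bars and the estimate with length and GC offsets as orange marks. The points run from -0.32 for RPL22L1 to 1.90 for RPS21, the stars mark the 21 members called by DESeq2, and the orange marks lie below the points for many members with a large estimate.

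The small subunit holds the decoding site and binds the mRNA. Its 28 tested members had a median log2 fold change of 0.58, 25 were positive, and DESeq2 called 8 higher (background 5.52%). RPS21 (ENSG00000171858, chr20:62387103-62388520, plus strand) had the largest estimate. It stood at 114 and 139.9 CPM in WT and at 179 and 774 CPM in mH2A1.1 KD, a log2 fold change of 1.90 (standard error 0.597, adjusted p = 0.194 in edgeR and 0.192 in DESeq2). Its raw count was 1638 in mH2A1.1 KD replicate 2 and 1079 in WT replicate 1, a library with over 4 times the total count, and without mH2A1.1 KD replicate 2 its log2 fold change was 0.51. RPS28 (117 and 129.8 CPM in WT, 133 and 603 CPM in mH2A1.1 KD) also had its high value in replicate 2, but its replicate 1 was close to WT, and without replicate 2 its log2 fold change was 0.11.
RPS12 stood at 117 and 139.9 CPM in WT and at 173 and 499 CPM in mH2A1.1 KD, a log2 fold change of 1.38 (standard error 0.449, adjusted p = 0.0131 in DESeq2). RPS27, a zinc-finger protein of the subunit surface, stood at 145 and 151 CPM and at 169.7 and 515 CPM. RPS14 was at 294 and 307 CPM in WT and 403 and 834 CPM in mH2A1.1 KD, and RPS24 at 586 and 629.8 CPM against 806 and 1218 CPM. For all 4, both KD libraries lay above both WT libraries.
FAU encodes a ubiquitin-like protein fused to ribosomal protein eS30, and RPS27A encodes ubiquitin fused to eS31. FAU stood at 29.2 and 35.1 CPM in WT and at 46.7 and 117 CPM in mH2A1.1 KD, a log2 fold change of 1.31 (standard error 0.407, adjusted p = 0.0195 in DESeq2). RPS27A stood at 381 and 415 CPM and at 503 and 587 CPM, a log2 fold change of 0.45 (standard error 0.182, adjusted p = 0.207 in DESeq2). The KD libraries of RPS27A lay above WT and close to each other, unlike those of FAU. RPS6, the substrate of the S6 kinases, was at 379.7 and 434 CPM in WT and 497 and 676 CPM in mH2A1.1 KD, a log2 fold change of 0.53 (standard error 0.213, adjusted p = 0.21 in edgeR).
At the low end, RPS7 stood at 386 and 401 CPM in WT and at 422 and 281 CPM in mH2A1.1 KD, so that the KD libraries fell on either side of WT, and its log2 fold change was -0.16 (standard error 0.23). RPS10 stood at 7.26 and 6.84 CPM and at 6.61 and 4.73 CPM, at the few counts given above.

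The large subunit holds the peptidyl transferase centre. Its 43 tested members had a median log2 fold change of 0.49, 38 were positive, and DESeq2 called 10 higher (background 5.52%). RPL37 stood at 173 and 185 CPM in WT and at 211 and 985 CPM in mH2A1.1 KD, a log2 fold change of 1.74 (standard error 0.614, adjusted p = 0.194 in edgeR and 0.253 in DESeq2). RPL38, which has been tied to translation of selected developmental mRNAs, stood at 126 and 147 CPM and at 156 and 647 CPM. RPL41, the shortest member with 75 coding bases, stood at 108 and 119 CPM and at 139.6 and 462 CPM (log2 fold change 1.39, standard error 0.494, adjusted p = 0.0199 in DESeq2). In all 3 the replicate 2 value was several times the replicate 1 value, and without replicate 2 the log2 fold changes were 0.24 for RPL37, 0.20 for RPL38 and 0.30 for RPL41.
RPL36 (ENSG00000130255) stood at 236 and 282 CPM in WT and at 389.6 and 851 CPM in mH2A1.1 KD, a log2 fold change of 1.26 (standard error 0.356, adjusted p = 0.194 in edgeR and 0.00843 in DESeq2). Without mH2A1.1 KD replicate 2 it was the only member called in edgeR, with a log2 fold change of 0.59 (1 of 74 members, background 2.74%). That fit holds 1 KD library, which is assumed to vary as the WT pair does, so no p-value is given. With length and GC offsets in the same fit, the log2 fold change of RPL36 was 0.39 and it was not called. RPL27A stood at 379.8 and 439 CPM and at 575 and 852 CPM, and RPL31 at 151 and 158 CPM and at 199 and 349 CPM.
RPL5 and RPL11 carry 5S rRNA into the ribosome and, when free, bind MDM2. RPL5 stood at 576 and 612 CPM in WT and at 632 and 573 CPM in mH2A1.1 KD, a log2 fold change of 0.02 (standard error 0.174), and the groups overlapped. RPL11 stood at 366 and 411 CPM and at 484 and 659 CPM, a log2 fold change of 0.55 (standard error 0.212, adjusted p = 0.2 in edgeR), and the groups did not overlap. RPL6 stood at 773 and 839 CPM in WT and at 786 and 661 CPM in mH2A1.1 KD, with a log2 fold change of -0.15 (standard error 0.184). RPL26 stood at 13.8 and 18.8 CPM and at 18.3 and 9.45 CPM, on few counts.

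The P-stalk, a flexible arm of the large subunit that recruits elongation factors, is built from RPLP0 and dimers of RPLP1 and RPLP2. All 3 genes were called higher by DESeq2, but on the whole table it called only RPLP1 of them, and with length and GC offsets none. RPLP0 stood at 926 and 1068 CPM in WT and at 1268 and 2827 CPM in mH2A1.1 KD (log2 fold change 1.04, standard error 0.359, adjusted p = 0.0362 in DESeq2). RPLP1 stood at 182 and 205 CPM and at 267 and 607 CPM (log2 fold change 1.17, standard error 0.365, adjusted p = 0.0195). RPLP2 stood at 232 and 276 CPM and at 339 and 737 CPM (log2 fold change 1.08, standard error 0.353, adjusted p = 0.0308). In each, both KD libraries lay above both WT libraries. With the offsets in edgeR the log2 fold changes were 0.86, 0.99 and 0.35 in the same order, and RPLP1 was called.

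The paralogues had smaller estimates. The 6 tested had a median log2 fold change of 0.13. DESeq2 called 0 of the 5 to which it gave an adjusted p (background 5.52% higher and 5.73% lower). Both KD libraries lay above both WT libraries for 2 of the 6, RPL26L1 and RPL36AL, near the 32.5% of all genes. The other 68 tested members had a median of 0.54, and the difference was not tested. RPL22L1 stood at 43.2 and 45.4 CPM in WT and at 39.9 and 29.8 CPM in mH2A1.1 KD, the lowest estimate of any member (log2 fold change -0.32, standard error 0.214, adjusted p = 0.359 in edgeR). Its partner RPL22 stood at 201 and 243 CPM and at 269 and 361 CPM (log2 fold change 0.50, standard error 0.217, adjusted p = 0.221). The 2 genes thus had opposite signs, neither past the test.
RPS27L stood at 54.0 and 56.7 CPM in WT and at 55.4 and 46.3 CPM in mH2A1.1 KD, with a log2 fold change of -0.11 (standard error 0.191), beside 1.20 (standard error 0.46) for RPS27. RPL7L1 stood at 784 and 811 CPM and at 875 and 775 CPM, a log2 fold change of 0.05 (standard error 0.176), beside 0.28 (standard error 0.187) for RPL7. RPL26L1 stood at 23.8 and 27.1 CPM and at 30.4 and 60.5 CPM, a log2 fold change of 0.79 (standard error 0.329), beside -0.13 for RPL26. RPL36AL stood at 171 and 188 CPM and at 226 and 282 CPM, and RPL39L at 6.52 and 10.9 CPM and at 7.93 and 13.2 CPM.

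The estimates moved with coding length, GC content and library. Among the 10 tested members with under 300 coding bases the median log2 ratio was 0.20 in mH2A1.1 KD replicate 1 and 1.91 in replicate 2. Among the 26 with at least 500 coding bases it was 0.20 and 0.51. The 187 other protein-coding genes with under 300 coding bases had medians of 0.16 and 0.25. Across members, Spearman's rho of coding length with the log2 ratio was -0.141 in replicate 1 and -0.382 in replicate 2, and rho of exon GC content was 0.211 and 0.441 (n = 74 genes, which share libraries). Over 10506 protein-coding genes in replicate 1, rho with GC content was 0.438, and over the 10489 with counts in replicate 2 it was 0.754, so KD libraries differed from WT along GC content throughout the table. Counts above both WT counts in replicate 2, the shallowest library, were found for 4 of 74 members (RPL37, RPL38, RPS21 and RPS28) and for 0.21% of all genes.

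**Figure D3:**
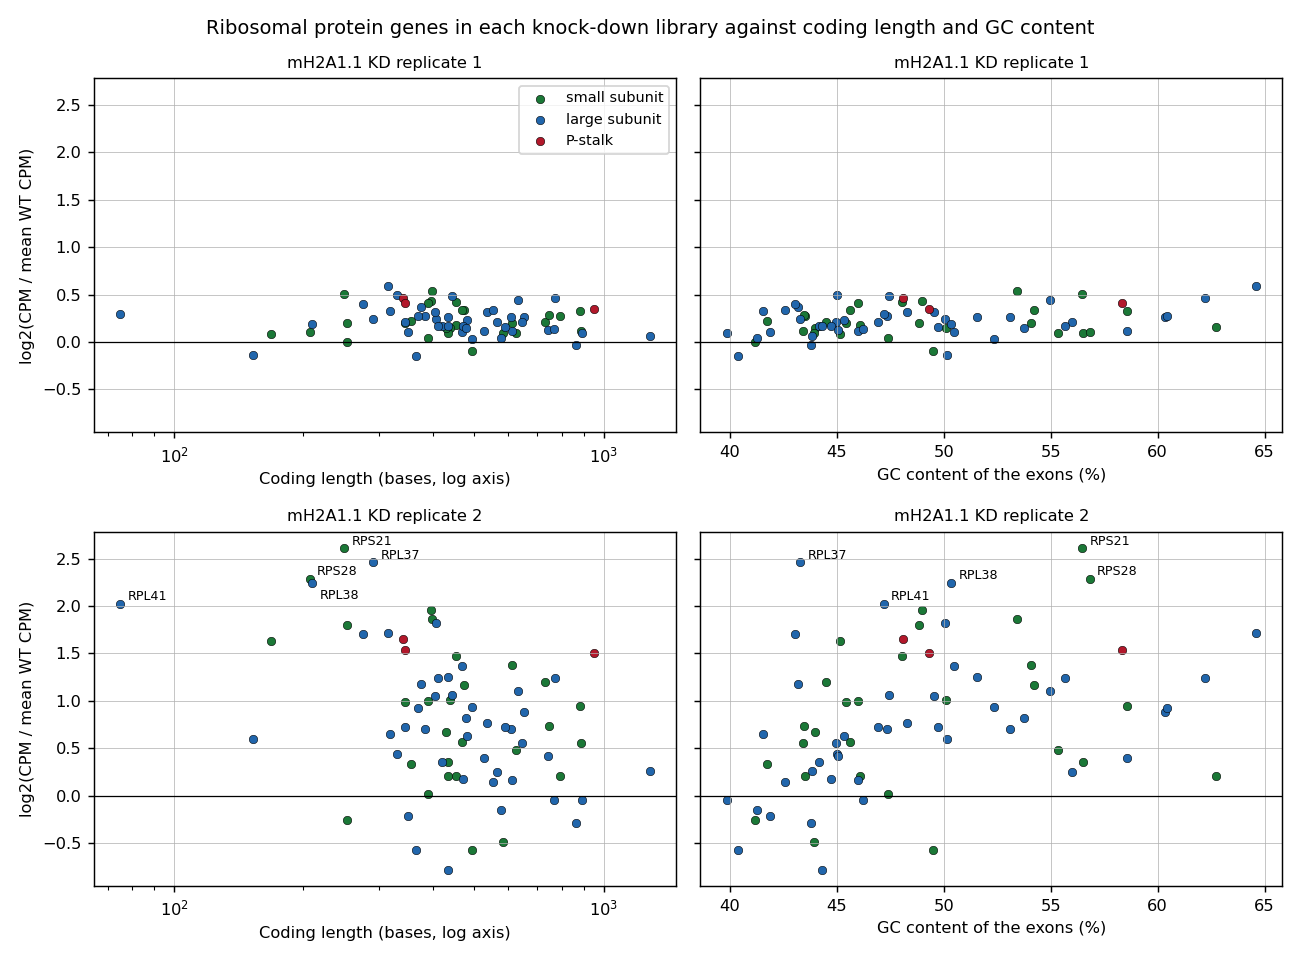
Each panel plots the log2 ratio of 1 mH2A1.1 KD library to the mean of the WT libraries, with replicate 1 in the upper row and replicate 2 in the lower, against coding length in bases on a log axis (left) or exon GC content in percent (right), with 1 point per member coloured by subunit. Replicate 1 stays in a narrow band around a median of 0.21, while replicate 2 spreads around 0.73 and is highest at RPS21, RPL37, RPS28, RPL38 and RPL41.

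With trends of exon length and GC content removed as offsets, the median of the members was 0.35 against 0.01 over all genes, and 61 of 74 were positive. Of the 66 positive estimates without offsets, 58 kept their sign and 8 turned negative, among them RPL10A (from 0.60 to -0.11) and RPL35 (from 0.63 to -0.083), and 3 negative ones turned positive. edgeR then called 10 members higher and none lower (background 2.75%), namely FAU, RPL27A, RPL31, RPL37, RPL37A, RPLP1, RPS6, RPS14, RPS20 and RPS24. Of the 21 DESeq2 calls, 7 were among these 10. DESeq2 with the offsets called 6 members higher (background 3.40%), FAU, RPL27A, RPL31, RPL36, RPL36AL and RPS24, of which 5 were among the 21. With coding length in place of exon length, edgeR called 10 members (background 2.26%), 8 of them the same as with exon length. FAU, RPL27A, RPL31 and RPS24 were called in all 3 fits with offsets. Their log2 fold changes with exon-length offsets in edgeR were 0.67, 0.82, 1.04 and 0.86, with adjusted p of 0.0985, 0.0621, 0.0737 and 0.0699.
Large estimates of several members depended on the offsets. RPS21 went from 1.90 to 0.93, RPLP2 from 1.08 to 0.35 and RPS15 from 0.18 to -0.38, whereas RPL37 went from 1.74 to 2.10, RPS20 from 0.27 to 0.61 and RPL5 from 0.02 to 0.35. RPL37 and RPS20 have 8040 and 6765 exon bases for 291 and 357 coding bases. With coding length in the offsets they were 1.74 and 0.42 and not called, and RPL5 was 0.43. Across members, rho of exon length with the log2 fold change was -0.237 without offsets and 0.265 with exon-length offsets.
Without mH2A1.1 KD replicate 2, where the remaining KD library is assumed to vary as the WT pair does, the median of the members was 0.21 and 70 of 74 were positive. At an adjusted p below 0.1 and any size of change, 35 members were higher (background 13.4%) and 0 lower in that fit, and with the offsets as well 30 were higher (background 13.3%) and 0 lower, while at a fold change over 1.5 none was called with offsets (background 1.83%). The any-fold counts were added after the other results had been seen.

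In WT cells, an mH2A1.1 peak lay within 500 bp of the gene start for 44 of 78 members (56.4%, background 46.9% of the 10943 tested genes with coordinates), a total mH2A1 peak for 16 (background 18.4%), and a common peak, an mH2A1.1 peak that overlaps a total mH2A1 peak by at least 1 bp, for 29 (37.2%, background 26.2%). These come from 1 library each, so the shares have no replicate check. macroH2A1 is known from broad domains of silent chromatin and is also found at transcribed genes. The common peaks over members were broad. The 29 members lay under 28 distinct common peaks with widths from 9000 to 495000 bp and a median of 39000 bp. The median of all 11849 common peaks was 12000 bp, but a wider peak is likelier to reach a gene start. Widths of common peaks over the starts of other genes were not computed, so the medians are not like for like. The 15 peaks of the mH2A1.1 list alone were narrow, at most 15000 bp, and 12 of them were a single 3000-bp bin, the unit in which peaks were called.
The members with a common peak at the start included RPL10A, RPL12, RPL13, RPL13A, RPL18, RPL23A, RPL26, RPL27, RPL28, RPL29, RPL31, RPL32, RPL35, RPL36, RPL38, RPL7L1, RPL8, RPLP2, RPS10, RPS14, RPS16, RPS19, RPS21, RPS27, RPS28, RPS3 and RPSA.
The widest common peak lay over RPS21, from 62343001 to 62838000 on chromosome 20. RPS14 lay under a peak of 123000 bp and RPL18 and RPS10 under peaks of 90000 bp, while RPL13A lay under one of 30000 bp. Of the 11 members on chromosome 19, 9 had a common peak, on a chromosome where 52.3% of 830 tested genes did. The whole gene body was inside common peaks for 24 members, while 27 members had no mH2A1.1 peak anywhere in the gene body. The shares over all genes were not computed for these counts. Members are short, with a median gene length of 5548 bp against 35333 bp over all genes tested, which bears on both counts. RPL36 is a case apart, because GENCODE starts it at 5674947, under a peak that ends at 5688000 and thus before the start site printed above, and with the start of its canonical transcript it had no common peak.

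**Figure D4:**
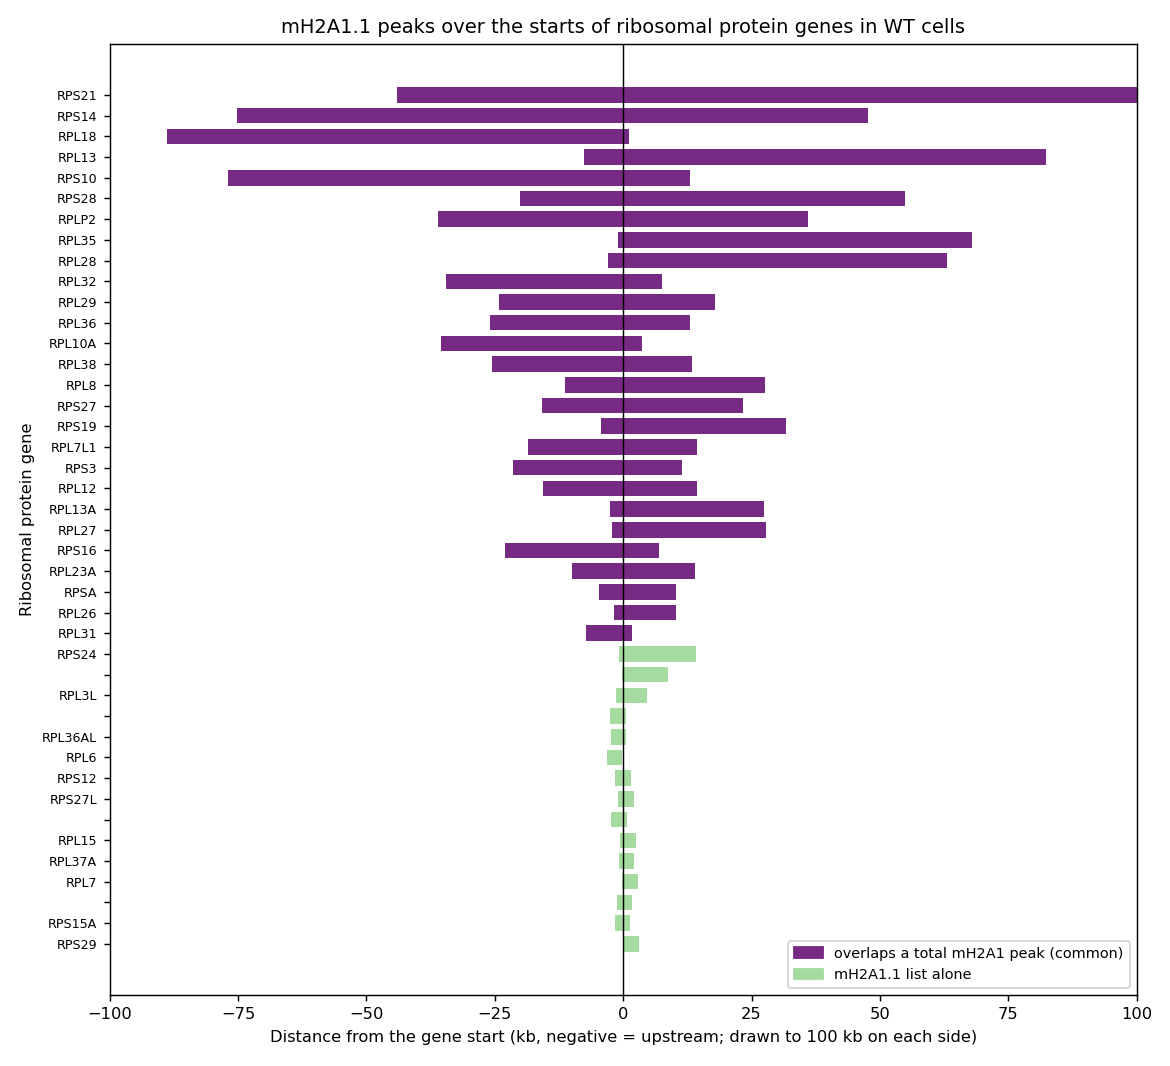
The horizontal axis gives the distance from the gene start in kb, negative upstream and cut at 100 kb on each side, and each row is a member with an mH2A1.1 peak within 500 bp of its start, with bars for the extent of that peak and symbols for the genes described in the text. Purple bars, the common peaks of the members named above, extend over at least 9000 bp, and green bars, of the 15 members with a peak in the mH2A1.1 list alone, span at most 15000 bp.

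The 29 members with a common peak at the start had a median log2 fold change of 0.78, the 14 tested with an mH2A1.1 peak that was not common had 0.35, and the 31 tested with no mH2A1.1 peak had 0.45. DESeq2 called 12, 3 and 6 of them higher (background 5.52%). The median exon GC content was 53.1%, 45.6% and 45.4% in the same order. With length and GC offsets the medians were 0.35, 0.26 and 0.35, so the groups no longer stood apart in that fit. Among the largest estimates, RPS21 (1.90), RPS28 (1.56) and RPL38 (1.55) had a common peak at the start, and RPL37 and RPL41 had no mH2A1.1 peak there. Among the smallest, RPS10 and RPL26, both on few counts, had a common peak. RPL6 had a peak of the mH2A1.1 list alone, and RPL22L1 and RPS7 had none. The link between peak and change was not tested.

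Genes that share the TOP tract or act in ribosome production were taken from gene lists chosen by function. Of 16 other TOP mRNAs 14 were tested, with a median log2 fold change of 0.29. DESeq2 called 3 higher and 0 lower, where 5.52% and 5.73% of all genes were called. With length and GC offsets the median was 0.46, above the 0.35 of the members, and with coding length and GC offsets 0.43 against 0.40. EEF1A1, which brings aminoacyl-tRNA to the ribosome, stood at 6418 and 6908 CPM in WT and at 8903 and 12570 CPM in mH2A1.1 KD (log2 fold change 0.69, standard error 0.225, adjusted p = 0.0709 in DESeq2). EEF2, the translocation factor, stood at 1074 and 1204 CPM and at 1609 and 3065 CPM (adjusted p = 0.0199). PABPC1 and NAP1L1 had negative estimates, -0.27 (standard error 0.173) and -0.59 (standard error 0.262). Among members, the 41 tested with a TOP tract at the annotated start had a median of 0.55 and 15 DESeq2 calls, and the 18 tested with a promoter entry and no tract had 0.37 and 2. With length and GC offsets edgeR called 8 of 41 and 0 of 18, with coding length and GC offsets 9 and 1, and DESeq2 with offsets 5 and 1, the 1 in the last being RPL36AL. The shares over all genes are those given with these fits above, and the difference between the groups was not tested. The group without a tract at the annotated base includes members with a tract within 5 bases of it, such as RPL36AL and RPS28. It also holds the paralogues RPL7L1, RPL26L1, RPL36AL and RPS27L, while RPL22L1 is in the other group, so the groups differ in more than the tract.
Of the ribosome assembly genes, 21 of 22 were tested, with a median of 0.18, and DESeq2 called 2 higher and 1 lower, shares near the 5.52% and 5.73% of all genes. With length and GC offsets the median was 0.07, and the estimates of EIF6 and BYSL were 0.82 and 0.34. EIF6, which keeps the large subunit from joining too early, stood at 53.1 and 67.6 CPM in WT and at 93.3 and 288 CPM in mH2A1.1 KD (log2 fold change 1.64, standard error 0.481, adjusted p = 0.00396 in DESeq2). BYSL, needed for the small subunit, stood at 78.9 and 81.4 CPM and at 118.5 and 189 CPM (adjusted p = 0.0335). RPF2, which helps load the 5S particle, was lower, at 48.2 and 48.1 CPM in WT and 31.4 and 21.3 CPM in mH2A1.1 KD (adjusted p = 0.0778). The nucleolar proteins NPM1 and NCL passed neither test, with log2 fold changes of -0.20 (standard error 0.18) and 0.13 (standard error 0.209).
Of 18 regulators 17 were tested, and DESeq2 called 1 higher and 1 lower, about the 5.52% and 5.73% of all genes, as did edgeR with the offsets. MDM2, the ubiquitin ligase of p53 that free RPL5 and RPL11 bind, stood at 174 and 158 CPM in WT and at 85.4 and 58.6 CPM in mH2A1.1 KD, a log2 fold change of -1.19 (standard error 0.227, adjusted p = 0.00188 in DESeq2). RPS6KA2, a kinase of the RSK family, stood at 22.5 and 20.5 CPM and at 42.1 and 69.5 CPM (log2 fold change 1.34, standard error 0.275, adjusted p = 0.00452 in DESeq2). MYC and LARP1 passed neither test, at 0.23 (standard error 0.19) and 0.38 (standard error 0.188). The mitochondrial ribosomal proteins, which serve the separate ribosome of that organelle, had a median of 0.23 over 68 tested genes. Of the 62 with an adjusted p, DESeq2 called 4 higher and 2 lower, near the 5.52% and 5.73% of all genes. With length and GC offsets the median of this list was 0.06.

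**Figure D5:**
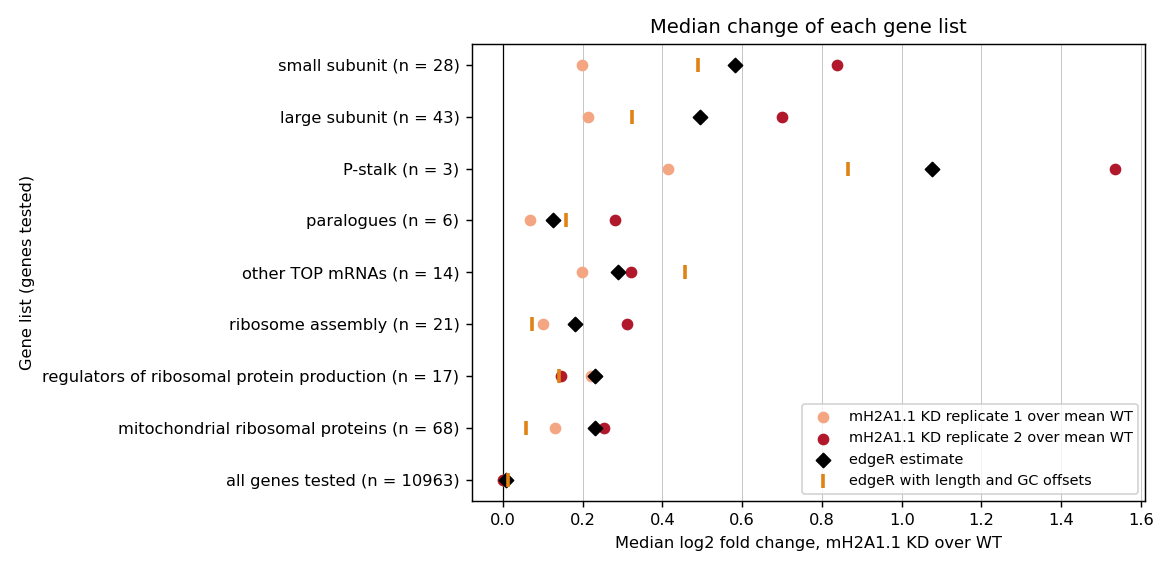
The horizontal axis gives the median log2 fold change of mH2A1.1 KD over WT and each row a gene list with the number tested, with circles for each KD library over mean WT, diamonds for the edgeR estimate and orange bars for edgeR with length and GC offsets. The P-stalk lies furthest to the right at 1.08, the small and large subunits follow at 0.58 and 0.49, and all genes tested lie at 0.01.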

How the data were processed

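RNA-seq of 2 WT and 2 mH2A1.1 KD libraries and peaks of 2 ChIP-seq libraries of WT cells were used. Input and promoter-capture Hi-C samples were not used here. The deposited values are raw counts of reads per gene. The authors aligned total RNA reads with STAR 2.5.1 to GRCh38, kept those above a mapping quality of 10, removed duplicates and counted with htseq-count at default parameters, with an annotation that is not given in the sources used here. That default takes reads on the strand of the gene, whereas the first reads of this stranded kit lie on the other strand, and the setting used is not stated. In 16 pairs of a non-coding gene with over 50% of its exon bases opposite a coding gene of over 1000 counts, the count per kb of the first in WT replicate 1 was at most 0.14 of that of the second, so the counts are not those of the opposite strand. For 5 members with coding bases opposite another gene's exons, the reads of both genes may not be told apart. Since no molecular identifiers were used, the removal of duplicates can discard separate molecules of short, abundant mRNAs, and its part in the members' values was not tested. The authors called peaks against input with normR in 3000-bp bins, and only positions were used, since the score is 0 in the deposited lists.

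Counts were tested with edgeR 4.0.16 (TMM, filterByExpr, quasi-likelihood test, Benjamini-Hochberg adjustment) in R 4.3.3, without genes of chromosomes 21, 22, X, Y and M, which KD replicate 2 almost lacks. The thresholds for a call were 0.1 (adjusted p) and 1.5 (fold change in either direction). DESeq2 1.42.0, leaving out each library, other normalizations and filters, and offsets from lowess trends (span 0.3) of log2 CPM on exon length and GC content were alternatives. Standard errors follow from edgeR's F statistic. The scripts were tested on counts simulated from these libraries. Coordinates, lengths and overlaps come from GENCODE release 44, for all but 106 identifiers, and peaks were sought within 500 bp of the gene start. Named are the 5 highest and 3 lowest in level, the 5 largest and 5 smallest fold changes, all calls, paralogue pairs, the P-stalk, RPS27A, FAU, RPL5, RPL11, RPS6 and members with a common peak. Some genes that this rule would name are not reported here. The members, lists and tests were chosen with earlier results of these data known. Totals of 9794674 and 7856892 counts in WT and 5584962 and 2309549 in KD set the precision.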

Additional observations from a re-analysis of the deposited data

How the results depend on the processing

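The number of calls depended on the setting. Against 0 genes and 0 members in the reported edgeR fit, DESeq2 called 874 genes and 21 members (945 and 8 on the whole table). edgeR called 2139 and 32 without the filter on low counts, 683 and 10 with length and GC offsets, and 612 and 10 with coding length and GC offsets, and DESeq2 with offsets called 508 and 6. With a library left out, genes called ranged from 2 to 4744 and members called from 0 to 45. The highest values came without mH2A1.1 KD replicate 1, and without mH2A1.1 KD replicate 2 they were 909 and 1. With offsets the same omissions gave 2043 genes and 36 members, and 669 genes and 0 members. When a KD library is left out, the other is assumed to vary like the WT pair. The whole table in edgeR, DESeq2 size factors and upper-quartile factors gave 0 member calls as well. The median of the members was positive in every setting run, from 0.16 to 0.72. The median WT level per kb was 102 CPM with exon length, 322 with the length of the canonical transcript and 665 with coding length. Common peaks at the start fell from 29 members to 13 when only the stretches shared by both lists counted, and to 19 when 50% of the mH2A1.1 peak had to be covered. The shares over all genes under these stricter rules were not computed, nor were the fold changes of members grouped by them. The offsets with coding length, the whole table in DESeq2, the offsets with a library left out and levels by coding length were chosen after seeing the data, and the cause of these shifts was not tested.

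Same-numbered libraries deviated together at r = 0.266 over 10963 genes, but the labels give no shared batch, so they were not treated as paired. With a replicate block edgeR called 2208 genes and 31 members (median 0.49), and with block and offsets 957 and 18.

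Several estimates changed sign, none past the test in the reported fit and not all near 0 there (RPS28 1.56, RPL23A 0.87, RPL35 0.63, RPL10A 0.60). With length and GC offsets RPL39L was -0.30, RPS15 -0.38, RPS27L 0.25, RPL18 -0.13, RPS19 -0.19, RPL10A -0.11 and RPL35 -0.083. In DESeq2 with offsets the first 5 of these were -0.020, -0.26, 0.19, -0.089 and -0.14. With block and offsets the 7 were -0.27, -0.42, 0.27, -0.14, -0.19, -0.12 and -0.086, and RPL29 was -8.1e-06. With coding length and GC offsets RPL39L was -0.23, RPS15 -0.37, RPS27L 0.014, RPL18 -0.18, RPS19 -0.27, RPL35 -0.0057 and RPS15A -0.10. Offsets without mH2A1.1 KD replicate 1 gave -0.20 for RPL39L, -0.77 for RPS15, 0.37 for RPS27L, -0.33 for RPL18, -0.30 for RPS19, -0.21 for RPL10A and -0.16 for RPL35. Offsets without mH2A1.1 KD replicate 2 gave -0.32 for RPL39L, -0.052 for RPS15, 0.17 for RPS27L, -0.092 for RPS19, -0.058 for RPL23A, 0.17 for RPL26, 0.015 for RPL6, -0.12 for RPS28, 0.15 for RPS7, -0.14 for RPL12 and -0.063 for RPL29. RPL5 was -0.0032 without the filter on low counts. With 1 library left out, without offsets, RPL26 ranged from -0.78 to 0.19, RPL39L from -0.10 to 0.64, RPL5 from -0.059 to 0.094, RPL7L1 from -0.050 to 0.14, RPS15A from -0.069 to 0.13, RPS27L from -0.26 to 0.0064 and RPS7 from -0.49 to 0.10.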
